A study of Rattus norvegicus with 28 samples.

Results

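Cartpt, Cck, Tac1, Gcg, Npy, Pyy, Gal, Nts, Adcyap1 and Sst encode precursors of neuropeptides and gut hormones, and their mRNA was followed in INS-1, an insulin-secreting cell line from a rat insulinoma. The 10 genes were picked by symbol from 17455 in the expression table, and each was read from the RefSeq transcript with the highest mean TPM (a level corrected for transcript length and library size) over 28 libraries. The set was chosen by earlier results on these libraries, in which the rises of Cartpt and Cck after 16 h of Ex-4 in WT cells were already known. Changes at 16 h of Ex-4 in WT cells are therefore described without a test for every one of the 10. Which measured values led to the other 8 genes is not given in the sources used here. The WT CON libraries of the 16 h Ex-4 contrast also enter every other WT contrast against CON, every interaction and the genotype comparison at CON. For Cartpt and Cck those tests are therefore not independent of the choice, and for Tac1 and Gcg this cannot be told. Cartpt, Cck, Tac1 and Gcg were expressed, with at least 6.09 TPM in every library, and were among the 10275 genes tested. The other 6 genes averaged under 1 TPM, did not pass that filter and were not tested.

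The cells were WT or carried a CRISPR knock-in of the S983A substitution, serine to alanine, in Med14 (Med14 S983A). Med14 is the scaffold of Mediator, through which transcription factors act on RNA polymerase II. Both genotypes were moved to serum-free medium and then left untreated (CON) or given 10 nM exendin-4 (Ex-4), which activates the GLP-1 receptor, or 10 µM forskolin (FSK), which acts directly on adenylyl cyclase. Treatment lasted 1, 8 or 16 h, which gave 14 groups of 2 bulk RNA-seq libraries. Mutant lines were raised from sorted single cells, and the study's methods state that experiments used 2 such lines made independently. Which line each mutant library came from is not given in the sources used here, so spread between lines and spread between libraries cannot be told apart. Nor is it given whether the WT cells were raised from a single cell. Genotype differences, the interactions included, therefore cannot be told apart from differences between cell clones. The study's methods call the replicates biological, while the labels do not say whether the 2 libraries of a group came from separate cultures, so p-values measure the spread between these libraries, part of which may be technical. A library held 38175238 to 82873934 fragments on the kept transcripts, and the 2 libraries of each group correlated at 0.99827 to 0.99906. Med14 itself averaged 20.9 TPM in WT CON and 19.9 TPM in Med14 S983A CON (log2 difference -0.06, SE 0.07, limma adjusted p 0.404), a level that does not read the substitution. Bulk levels cannot tell fewer cells of a type from less RNA per cell.

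Peptide hormones and neuropeptides are made as precursors, cut by prohormone convertases and stored in dense granules beside or in place of insulin. Ex-4 and FSK both raise cAMP, which activates protein kinase A and the transcription factor CREB. CREB binds the cAMP response element (CRE), a short palindrome whose core can also stand alone, and several peptide genes, Sst above all, are textbook CREB targets. In the islet, glucagon marks alpha cells, somatostatin delta cells, and cholecystokinin and CART peptide are known from beta cells under metabolic load.

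Promoters of 9 of the 10 genes were found in RefSeq's rat GRCr8 annotation, while the expression values rest on rn6. Each window ran from 250 bases before to 50 bases after the annotated start, and was searched on both strands for TGACGTCA (the CRE), for TGACG (its core, which the CRE contains) and for TGANTCA (the site type of AP-1). Cartpt and Sst held the whole CRE, which was present in 1.83% of 33469 rat promoters. Tac1, Gal and Nts held the core alone (21.2% of promoters had at least 1), and Nts also held a TGANTCA match (7.33% of promoters). Npy, Pyy, Adcyap1 and Gcg held none of the 3 letter strings in these windows. Below are the 3 expressed genes with an entry, and Sst as the member whose promoter held the same palindrome as that of Cartpt. Matches are in capitals, and each window is given 5′ to 3′ on the strand of its gene.
Cartpt promoter, GRCr8 chr2:32991186-32991485, minus strand: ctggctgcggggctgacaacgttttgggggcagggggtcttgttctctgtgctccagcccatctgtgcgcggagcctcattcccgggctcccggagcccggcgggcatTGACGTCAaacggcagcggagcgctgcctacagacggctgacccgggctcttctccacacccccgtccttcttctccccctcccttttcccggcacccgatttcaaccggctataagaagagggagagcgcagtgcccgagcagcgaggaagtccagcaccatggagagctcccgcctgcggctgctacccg
Tac1 promoter, GRCr8 chr4:36645333-36645632, plus strand: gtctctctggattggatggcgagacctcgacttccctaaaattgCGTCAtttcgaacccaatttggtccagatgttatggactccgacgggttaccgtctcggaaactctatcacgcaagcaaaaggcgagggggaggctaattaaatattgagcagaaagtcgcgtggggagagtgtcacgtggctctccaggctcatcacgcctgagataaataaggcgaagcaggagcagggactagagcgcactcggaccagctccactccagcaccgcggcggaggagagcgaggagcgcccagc
Gcg promoter, GRCr8 chr3:67531484-67531783, minus strand: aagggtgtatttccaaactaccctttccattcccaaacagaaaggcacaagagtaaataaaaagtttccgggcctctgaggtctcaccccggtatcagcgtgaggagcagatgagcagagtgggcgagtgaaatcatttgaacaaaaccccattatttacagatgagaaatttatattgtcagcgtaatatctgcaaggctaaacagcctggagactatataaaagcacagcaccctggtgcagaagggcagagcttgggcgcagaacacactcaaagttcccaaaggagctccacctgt
Sst promoter, GRCr8 chr11:90461296-90461595, plus strand: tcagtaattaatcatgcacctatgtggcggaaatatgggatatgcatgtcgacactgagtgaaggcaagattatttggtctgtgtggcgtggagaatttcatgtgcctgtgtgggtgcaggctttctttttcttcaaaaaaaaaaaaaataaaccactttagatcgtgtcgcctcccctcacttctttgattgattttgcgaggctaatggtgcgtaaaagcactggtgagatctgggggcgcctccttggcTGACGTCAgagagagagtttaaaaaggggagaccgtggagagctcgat
Counted from the annotated start, which was not checked against reads, the CRE of Cartpt lay at -142 to -135 and that of Sst at 2 to 9. The core match of Tac1 lay on the opposite strand at -206 to -202. A match of letters is a description of the window and says nothing of binding in these cells.

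In untreated WT cells Gcg was the highest of the 10 genes at 167 ± 2.17 TPM (SD, n = 2), followed by Cck at 24.8 ± 0.961 TPM, Cartpt at 8.39 ± 0.964 TPM and Tac1 at 8.01 ± 0.547 TPM. Treatment raised all 4 genes at 8 h and 16 h, whichever agent and genotype, and raised 3 of the 4 at 1 h, Gcg being the exception. A gene was called at a limma adjusted p under 0.05 and a change of more than 1.5-fold, with changes taken on log2(TPM + 1). Outside WT 16 h Ex-4, 40 of 44 treatment contrasts were called by this rule, all of them as rises, and the other 4 were those of Gcg at 1 h. For comparison, of all 10275 genes Ex-4 raised 1.75% at 1 h, 3.61% at 8 h and 3.53% at 16 h (the contrast described without a test) in WT cells, and 2.03%, 3.21% and 4.73% in Med14 S983A cells. FSK raised 2.53%, 8.77% and 10.3% of all genes in WT cells and 3.19%, 11.6% and 12.2% in Med14 S983A cells. Ex-4 and FSK contrasts of one genotype share the same CON libraries. The median change of all genes ran from -0.34 to -0.03 over the 12 treatment contrasts, and from -0.36 to 0.16 when libraries were scaled on the ERCC spike-ins, and the called rises kept their direction under both.

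**Figure D1:**
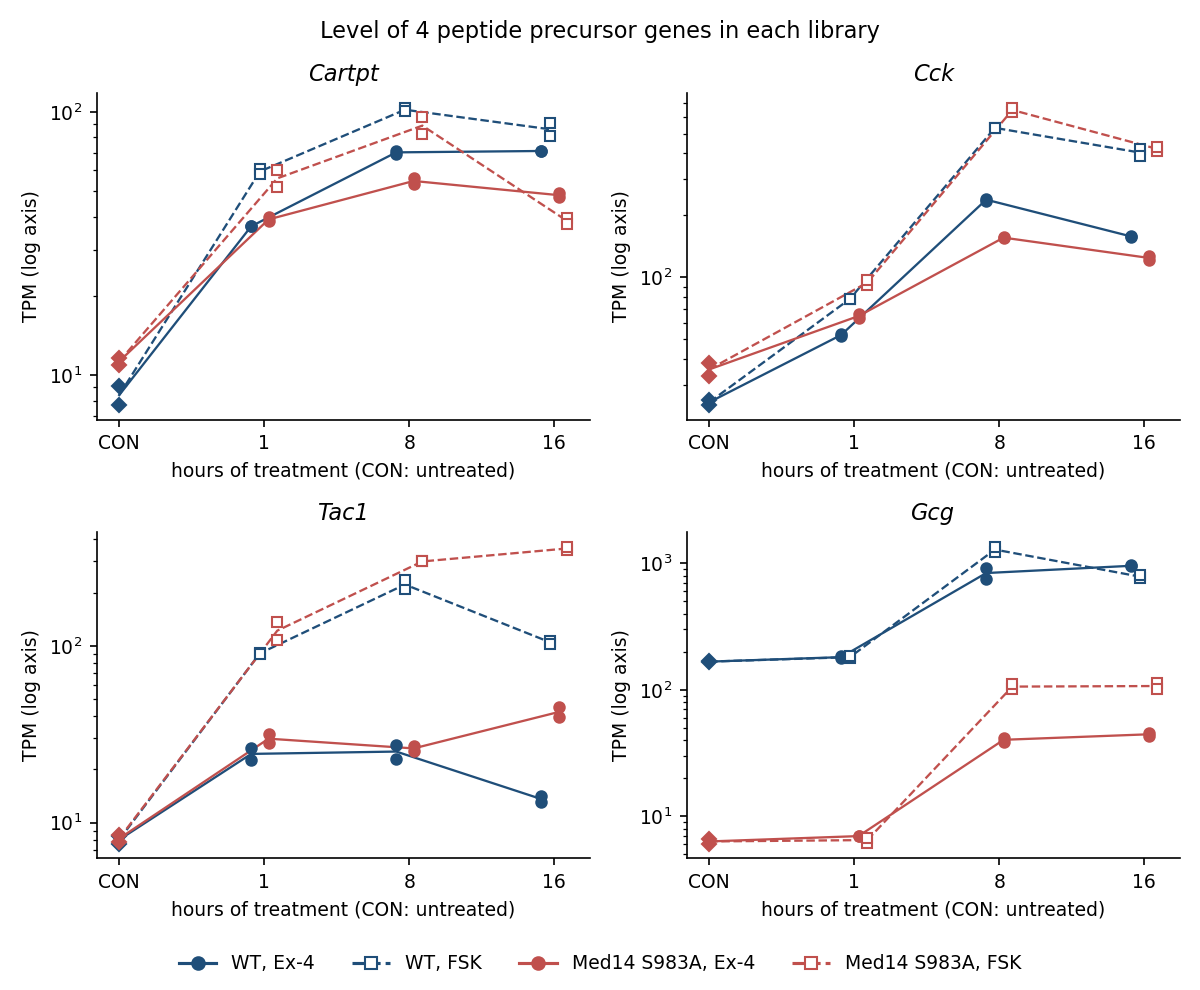
TPM on a log axis against hours of treatment for the 4 expressed genes, with CON at the left. Each symbol is a library and lines join group means (filled circles and solid lines Ex-4, open squares and dashed lines FSK, blue WT, red Med14 S983A). Cartpt, Cck and Tac1 are raised at 1 h, and Gcg only from 8 h, with all mutant Gcg values below 113 TPM.

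Cartpt (NM_017110, rn6 chr2:30125249-30127269, minus strand) encodes CART, a peptide of hypothalamic neurons and of islet cells under glucose stress. It stood at 7.71 and 9.07 TPM in the 2 WT CON libraries. With Ex-4 the pairs of WT libraries read 36.8 and 36.7 TPM at 1 h, 71.1 and 69.3 TPM at 8 h, and 71.0 and 71.2 TPM at 16 h. The level was thus more than 4 times the CON mean within 1 h, and the 8 h and 16 h libraries overlapped. With FSK the WT libraries read 60.6 and 58.3 TPM at 1 h, 103.3 and 100.7 TPM at 8 h, and 90.9 and 81.1 TPM at 16 h. No treated library overlapped CON. The log2 rise at 1 h was 2.01 with Ex-4 (SE 0.07, limma adjusted p 1.17e-17) and 2.69 with FSK (SE 0.07, limma adjusted p 1.07e-20), and at 8 h it was 2.93 (limma adjusted p 1.56e-20) and 3.46 (limma adjusted p 2.42e-23). The 16 h rise with Ex-4, one of those that led to the set, was 8.47-fold between means.

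Cartpt rose less in Med14 S983A cells, with called differences at 8 h and 16 h. Mutant CON libraries were at 10.9 and 11.6 TPM, a difference from WT of 0.39 on the log2 scale that was not called (SE 0.07, limma adjusted p 3.38e-05, below 1.5-fold). Mutant libraries read 39.7 and 38.4 TPM at 1 h of Ex-4, 56.2 and 53.1 TPM at 8 h, and 49.2 and 47.4 TPM at 16 h. At 8 h and 16 h they lay below both WT libraries of the same treatment and time. With FSK the mutant pairs were 51.9 and 60.0 TPM at 1 h, 82.2 and 95.3 TPM at 8 h, and 39.6 and 37.4 TPM at 16 h. The 16 h FSK libraries overlapped the mutant 1 h Ex-4 libraries, while both WT libraries at 16 h of FSK were at 81.1 TPM or more. The difference between genotypes in the log2 response, tested as an interaction, was -0.74 at 8 h of Ex-4 (SE 0.10, limma adjusted p 8.16e-06) and -1.53 at 16 h of FSK (SE 0.10, limma adjusted p 3.81e-12). At 8 h of FSK it was -0.59 (SE 0.10, limma adjusted p 2.55e-05), just past 1.5-fold, and the call was lost on leaving out replicate 1 of Med14 S983A 8 h FSK (-0.49), replicate 2 of Med14 S983A CON (-0.55), replicate 1 of WT 8 h FSK (-0.57) or replicate 1 of WT CON (-0.49). At 16 h of Ex-4 the value was -0.94 (SE 0.10). It is given without a p because it rests on the WT 16 h Ex-4 libraries, which with WT CON led to the gene. At 1 h it was -0.30 with Ex-4 (SE 0.10, limma adjusted p 0.203) and -0.48 with FSK (SE 0.10, limma adjusted p 0.00277, below 1.5-fold), and the FSK value was called with ERCC scaling (-0.73) and with DESeq2 on ERCC size factors (-0.76).

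Tac1 (NM_001124768, rn6 chr4:33638853-33646821, plus strand) encodes preprotachykinin, the precursor of substance P and neurokinin A. Its 4 RefSeq isoforms share most of their exons, and the other 3 averaged 96.9% to 98.5% of the one kept, so the values hold for the locus and not for an isoform. Tac1 answered FSK far more than Ex-4. WT libraries stood at 8.40 and 7.62 TPM in CON. They reached 22.5 and 26.4 TPM at 1 h of Ex-4, 27.6 and 22.9 TPM at 8 h, and 14.2 and 13.1 TPM at 16 h. With FSK they reached 90.9 and 90.3 TPM at 1 h, 208 and 236 TPM at 8 h, and 106.8 and 102.6 TPM at 16 h. Even the 16 h Ex-4 pair, the lowest treated group, did not overlap CON. The log2 rise in WT was 1.5 at 1 h and 1.54 at 8 h of Ex-4 (SE 0.09 each, limma adjusted p 2.73e-12 and 8.06e-13), and the 16 h mean was 1.70 times that of CON. The FSK values were 3.35, 4.63 and 3.55 (SE 0.09 each, limma adjusted p 3.98e-20, 1.95e-23 and 4.29e-21).

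In Med14 S983A cells Tac1 started from the same range (8.52 and 7.76 TPM in CON, log2 difference 0.02, SE 0.09, limma adjusted p 0.864) and its 16 h libraries lay above those of 8 h, where in WT they lay below them with both agents, a difference between times that was not tested. Mutant libraries read 28.2 and 31.5 TPM at 1 h of Ex-4, 25.5 and 27.05 TPM at 8 h, and 45.0 and 39.4 TPM at 16 h. With FSK they read 107.8 and 135.7 TPM at 1 h, 299.7 and 299.7 TPM at 8 h, and 348.6 and 361 TPM at 16 h, the last being the highest Tac1 group of the 14. At 16 h the interaction was 1.54 for Ex-4 (SE 0.13, without a p) and 1.73 for FSK (SE 0.13, limma adjusted p 6.12e-11), in favour of the mutant. At 8 h it was 0.04 (SE 0.13, limma adjusted p 0.861) and 0.41 (SE 0.13, limma adjusted p 0.0107, below 1.5-fold), and neither was called.

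Cck (NM_012829, rn6 chr8:130120525-130127109, minus strand) encodes cholecystokinin, a gut hormone and brain peptide that slows gastric emptying and drives pancreatic enzyme release. Of the 3 genes raised within 1 h, it had the smallest rise at that time (log2 1.06 with Ex-4 and 1.63 with FSK in WT, limma adjusted p 1.14e-14 and 5.24e-19). WT libraries were at 24.1 and 25.5 TPM in CON. With Ex-4 they were at 53.0 and 52.2 TPM at 1 h, 236 and 242 TPM at 8 h, and 158 and 158 TPM at 16 h. With FSK they were at 78.5 and 78.8 TPM at 1 h, 535 and 530.4 TPM at 8 h, and 421 and 387 TPM at 16 h. Both agents thus gave the highest Cck level at 8 h, and FSK gave the higher one at each time. The log2 rise at 8 h was 3.22 with Ex-4 (SE 0.05, limma adjusted p 3.30e-24) and 4.37 with FSK (SE 0.05, limma adjusted p 1.89e-27). At 16 h of Ex-4, the contrast known beforehand, the WT mean was 6.38 times that of CON.

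For Cck the genotypes differed in the response to 8 h of Ex-4. Mutant CON libraries were at 33.1 and 38.5 TPM, 0.51 above WT on the log2 scale (SE 0.05, limma adjusted p 2.90e-09), just under 1.5-fold and therefore not called. This difference was called with 5 other scalings or tests (log2 0.60 to 0.73) and without replicate 1 of Med14 S983A CON (0.62). With Ex-4 the mutant libraries read 66.6 and 63.4 TPM at 1 h, 155 and 157 TPM at 8 h, and 122 and 127 TPM at 16 h. They lay above WT at 1 h and below it at 8 h and 16 h. With FSK they read 91.9 and 96.9 TPM at 1 h, 638 and 663 TPM at 8 h, and 412 and 429.6 TPM at 16 h. The interaction at 8 h of Ex-4 was -1.12 (SE 0.07, limma adjusted p 4.36e-11), while that at 8 h of FSK was -0.22 (SE 0.07, limma adjusted p 0.0121) and that at 16 h of FSK -0.45 (SE 0.07, limma adjusted p 9.73e-06), both below 1.5-fold. With ERCC scaling, in limma or DESeq2, the 16 h FSK value became -0.60 and was called. At 16 h of Ex-4 the value was -0.85 (SE 0.07), without a p for the reason given for Cartpt.

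Gcg (NM_012707, rn6 chr3:48442635-48451650, minus strand) encodes proglucagon, the precursor of glucagon in alpha cells and of GLP-1, the natural ligand of the receptor that Ex-4 activates, in gut L cells. Of the 4 tested genes it was the one that separated the genotypes most before any treatment. WT CON libraries held 165 and 169 TPM, against 6.09 and 6.56 TPM in Med14 S983A CON, a 26.4-fold lower mean (log2 difference -4.52, SE 0.07, limma adjusted p 8.07e-26). In this contrast 11.1% of all genes were called lower and 8.29% higher, and Gcg was the only one of the 4 tested genes called. Every mutant library, the treated ones included, stayed below every WT library: the highest mutant value was 113 TPM and the lowest WT value was 165 TPM.

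Gcg did not pass the test at 1 h. WT libraries were at 178 and 184 TPM after 1 h of either Ex-4 or FSK (log2 change 0.12 in both, SE 0.07, limma adjusted p 0.229 and 0.175), and mutant libraries were at 6.98 and 6.97 TPM with Ex-4 and at 6.19 and 6.78 TPM with FSK. At 8 h Gcg stood at 758 and 918 TPM with Ex-4 and 1225 and 1345 TPM with FSK in WT cells, and at 38.5 and 41.9 TPM and 101.7 and 110.3 TPM in mutant cells. No 8 h library overlapped the CON libraries of its genotype. At 16 h WT cells held 947 and 966 TPM with Ex-4 and 761 and 809 TPM with FSK, while mutant cells held 45.5 and 43.4 TPM and 112.9 and 101.4 TPM. The log2 rise at 16 h of Ex-4 was 2.51 in WT, given without a p as are all values of that contrast, and 2.64 in the mutant (SE 0.07, limma adjusted p 5.60e-20). Its interaction was 0.12 (SE 0.10, without a p). FSK raised the low mutant level by a larger fold than the WT level, with interactions of 0.93 at 8 h (SE 0.10, limma adjusted p 1.64e-08) and 1.66 at 16 h (SE 0.10, limma adjusted p 4.19e-13). In TPM the gain at 16 h of FSK was the smaller one in the mutant, where the mean rose by 101 TPM to 107 TPM, against a rise by 618 TPM to 785 TPM in WT.

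Over the 6 interactions of the 4 tested genes, 7 of the 20 that do not use the WT 16 h Ex-4 libraries were called, and the 4 at 16 h of Ex-4 are descriptions. None of the 7 was at 1 h, where the count at an unadjusted p under 0.05 was 5 of 8 and edgeR called 0. At 1 h 0.672% of all genes differed between genotypes in their Ex-4 response in either direction, and 1.64% in their FSK response. At 8 h of Ex-4, 2 of 4 were lower in the mutant (0.798% of all genes) and none higher (1.98%). At 16 h of Ex-4, described without a test, Cartpt and Cck were lower and Tac1 higher by more than 1.5-fold (1.81% of all genes were called lower and 5.43% higher). At 8 h of FSK, 1 was lower (6.21% of all genes) and 1 higher (7.65%), and at 16 h of FSK 1 was lower (6.4%) and 2 higher (10.6%). Cartpt and Cck carried the lower values and Tac1 and Gcg the higher ones.

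**Figure D2:**
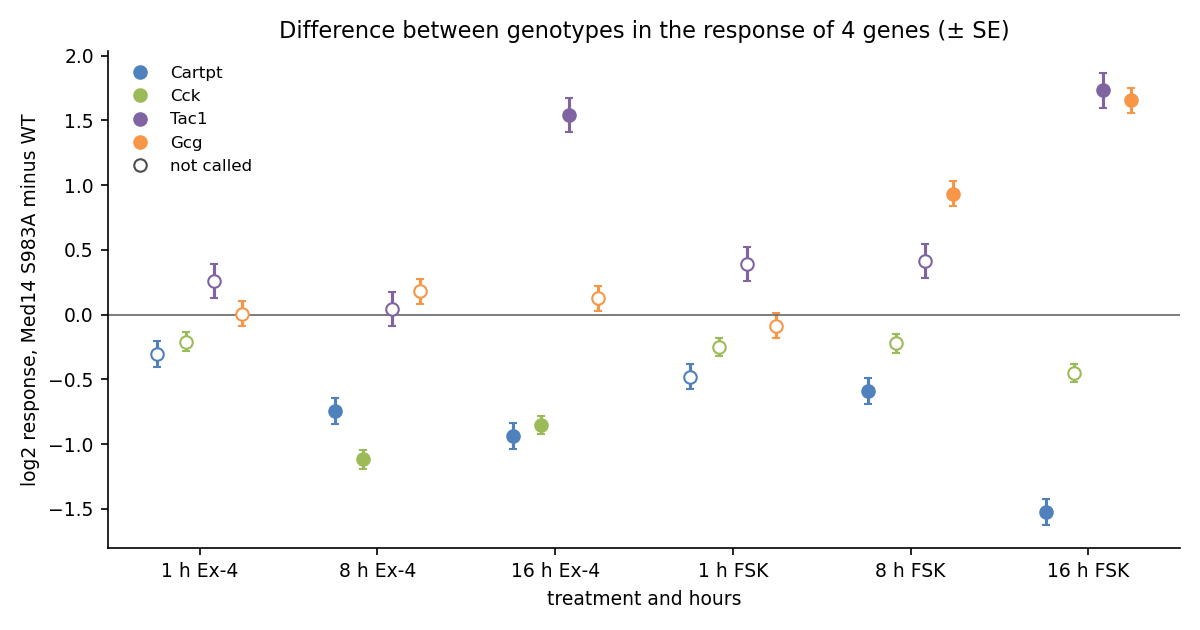
Log2 response in Med14 S983A minus that in WT for the 4 expressed genes, with SE bars, for each agent and time. Filled points passed the calling rule and open points did not, and those at 16 h of Ex-4 are descriptions; Cartpt and Cck lie below 0 in each of the 6, Tac1 exceeds 1.5 at 16 h of both agents, and Gcg exceeds 0.9 at 8 h and 16 h of FSK.

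Ex-4 and FSK were also compared at matched times, each at its single dose. Of the 20 comparisons that do not use the WT 16 h Ex-4 libraries, 13 were called, all with the lower level under Ex-4. In WT cells 2 of 4 genes were called lower with Ex-4 at 1 h and 3 at 8 h, where 1.14% and 4.77% of all genes were. At 16 h in WT, described without a test, the log2 difference was -2.86 for Tac1, -1.35 for Cck, -0.27 for Cartpt and 0.29 for Gcg, and 7.29% of all genes were called lower. In Med14 S983A cells the counts were 1, 4 and 3 of 4, where 1.58%, 6.72% and 5.76% of all genes were. Tac1 was called in all 5 that were tested, and over all 6 its FSK means were 3.70 to 11.4 times those of Ex-4. The widest gap was at 8 h in the mutant (log2 difference -3.46, SE 0.09, limma adjusted p 1.30e-20). Cck was called at 8 h, by -1.15 in WT and -2.05 in the mutant (SE 0.05 each, limma adjusted p 3.37e-16 and 2.91e-21). In the mutant it was also called at 16 h (-1.75, SE 0.05, limma adjusted p 1.21e-19). At 1 h it differed by -0.57 in WT and -0.53 in the mutant (SE 0.05 each, limma adjusted p 5.61e-09 and 1.16e-08), both just under 1.5-fold, and it was called with median centring, edgeR and DESeq2 in both genotypes (-0.64 to -0.63) and in WT also with ERCC scaling (-0.63) and DESeq2 on ERCC size factors (-0.62). Gcg in the mutant was lower with Ex-4 at 8 h (log2 -1.38) and 16 h (-1.25, SE 0.07 each, limma adjusted p 1.64e-15 and 3.38e-14). In WT it was lower with Ex-4 at 8 h (log2 -0.62, SE 0.07, limma adjusted p 1.07e-08). This WT 8 h call of Gcg was lost with ERCC scaling (-0.49) and with DESeq2 on ERCC size factors (-0.45). It was also lost on leaving out replicate 1 of the WT 8 h Ex-4 pair (-0.48) or replicate 2 of the WT 8 h FSK pair (-0.55). Cartpt was called in 2 of the 5 tested, at 1 h in WT (-0.68, SE 0.07, limma adjusted p 9.10e-08) and at 8 h in the mutant (-0.69, SE 0.07, limma adjusted p 2.70e-09), the second of which was lost with ERCC scaling (-0.58) and without replicate 2 of Med14 S983A 8 h FSK (-0.58). At 8 h in WT it was -0.53 (SE 0.07, limma adjusted p 2.58e-07), below 1.5-fold, and was called with median centring (-0.80), edgeR (-0.78) and DESeq2 (-0.79). At 1 h in the mutant it was -0.50 (SE 0.07, limma adjusted p 5.11e-06), and was called with the same 3 (-0.61 to -0.60).

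The order of the 14 groups differed among the 4 genes. Cartpt ran from WT CON (8.39 TPM) to WT 8 h FSK (102.0 TPM), and 5 of the 13 neighbouring pairs of groups overlapped in their libraries. Cck ran from WT CON to Med14 S983A 8 h FSK (650.3 ± 17.3 TPM, SD, n = 2), with 1 overlapping pair, that of the 16 h FSK groups of both genotypes. Tac1 ran from WT CON to Med14 S983A 16 h FSK (355 ± 8.99 TPM), with 3 overlapping pairs. Gcg ran from Med14 S983A CON (6.32 ± 0.328 TPM) to WT 8 h FSK (1285 ± 84.3 TPM), with 4 overlapping pairs.

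Over the 14 group means of log2(TPM + 1), the genes most like Cartpt were Mest (Pearson r 0.87), Tmem30a (0.85) and Ppargc1a (0.83), a coactivator of mitochondrial genes, and no gene reached 0.9. The genes most like Cck were Mllt11 (0.98), Ufm1 (0.96) and Tspan13 (0.95), among 74 genes over 0.9. Those most like Tac1 were Ctu2 (0.95), Ifrd1 and Arid5a (0.93 each), among 10 genes over 0.9. Those most like Gcg were Syt5, a vesicle calcium sensor (0.98), Stt3a, of the oligosaccharyltransferase (0.98), and Gucy2c, the guanylin receptor (0.98), among 85 genes over 0.9. Among the members, Cartpt and Cck correlated at 0.80, Cck and Tac1 at 0.77, and Gcg and Tac1 at 0.15. These correlations describe 14 groups that share libraries' depth and their 2 genotypes, out of 10274 other genes, and carry no test.

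Npy and Pyy, of the neuropeptide Y family, were near absent. Npy (NM_012614, rn6 chr4:79557856-79565057) encodes an appetite peptide that inhibits insulin release. Its WT libraries ran from 0 to 0.13 TPM (median 0.0345) and its mutant libraries from 0 to 0.476 TPM (median 0.0985), together 11.5 and 32 fragments over 14 libraries each. A second copy of Npy is annotated nearby in rn6 (chr4:79574010-79581210, mean 0.02 TPM), so reads that match both may be lost or split and the level is uncertain. Pyy (NM_001034080, rn6 chr10:90047991-90049112) encodes peptide YY of gut L cells. It ran from 0 to 0.28 TPM in WT and from 0.036 to 0.29 TPM in the mutant, with 18 and 33 fragments in all. Over 3 fragments were found in 2 mutant libraries and no WT library for Npy, and in 4 mutant libraries and 1 WT library for Pyy.

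Gal (galanin), Nts (neurotensin), Adcyap1 (PACAP, which itself activates adenylyl cyclase through its receptor) and Sst (somatostatin, the hormone of delta cells that inhibits insulin and glucagon release) were at 0 in most libraries. Gal (NM_033237, rn6 chr1:218653059-218657922) had 1 fragment in each of 5 libraries and was at 0 in 23. Sst (NM_012659, rn6 chr11:80358172-80359449), whose promoter held a whole CRE, was at 0 in 22 libraries and never above 2 fragments. Of its 7.5 fragments 7 lay in WT libraries, and none in a library treated with either agent for 16 h. Adcyap1 (NM_016989, rn6 chr9:121707926-121713124) was at 0 in all 14 WT libraries and reached at most 2 fragments in 7 mutant ones. A level of 0 allows up to 3 fragments in a library, which is 0.0857 to 0.194 TPM for Sst and 0.0448 to 0.101 TPM for Adcyap1, so lower levels were not detectable at this depth. These limits cover counting error only.

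Nts (NM_001102381, rn6 chr7:44111594-44120998) was at 0 in 17 libraries and had at most 1 fragment in any WT library. In the mutant it had 2 and 5 fragments at 8 h of FSK (0.087 and 0.118 TPM) and 10.5 and 5 fragments at 16 h of FSK (0.43 and 0.2 TPM). No other library exceeded 2 fragments. The 16 h FSK libraries of the mutant lay above all others of the series, at a level more than 10 times lower than that of the least expressed tested member.

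**Figure D3:**
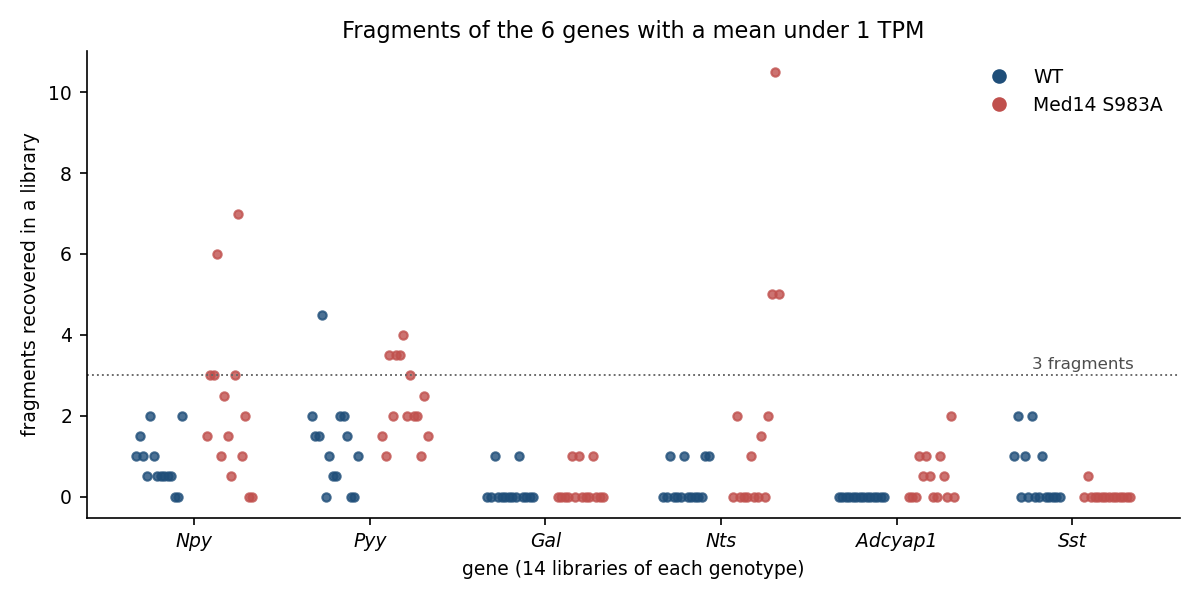
Fragments recovered in each library for the 6 genes under 1 TPM, 14 WT libraries (blue) and 14 Med14 S983A libraries (red) per gene, with a dotted line at 3 fragments. Nts reaches 10.5 fragments in 1 mutant library, Npy 7, and Gal, Adcyap1 and Sst stay at or below 2.

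Other peptide precursors were read from a list of 59 symbols, of which 56 were in the table and 21 were tested. At 16 h of Ex-4, 6 of the 21 were called higher and 4 lower in WT, where 3.53% of all genes were higher and 8.28% lower. The median log2 change was 0.22, against -0.16 over all genes. In the mutant 6 were higher and 1 lower, where 4.73% of all genes were higher and 7.15% lower (median 0.27, against -0.06). At 16 h of FSK the counts were 7 higher and 5 lower in WT (median 0.40, against -0.20), where 10.3% of all genes were higher and 24.1% lower. In the mutant they were 6 higher and 2 lower (median 0.03, against -0.10), where 12.2% of all genes were higher and 21.1% lower. Gast, the gastrin precursor and the closest relative of Cck, rose in all 4 of these contrasts, by 1.74 and 1.89 in WT and by 1.76 and 2.81 in the mutant on the log2 scale. Vgf, a granule protein precursor, rose by 1.08 and 2.63 in WT and by 1.33 and 4.44 in the mutant, whose CON level was lower by 2.69 on the log2 scale. Rln1, the relaxin precursor, rose by 1.00 and 1.31 in WT and by 0.68 with Ex-4 in the mutant. Nmu, the neuromedin U precursor, rose by 1.14 and 4.06 in WT, with a mutant change of 0.01 and -0.06 that was not called. It was near absent in the mutant, at no more than 0.109 TPM in any library, and reached 60.9 TPM in WT. Nmu thus passed the filter through treated WT libraries alone, since its mean in WT CON was 0.29 TPM. Its WT rises, counted among those called above, are therefore descriptions. Its interactions (-1.12 and -4.11) largely repeat the WT change and are descriptions too. Iapp, the amylin precursor secreted with insulin, rose by 0.69 and 1.08 in WT, and its mutant changes of 0.14 and -0.07 were not called (interaction -1.15 at FSK, called). Nucb2, the nesfatin precursor, rose with Ex-4 by 0.88 in WT and 0.64 in the mutant. Calca, the calcitonin and CGRP precursor, rose by 0.99 with FSK in WT and by 0.93 and 1.78 in the mutant. Tac3, the neurokinin B precursor and a relative of Tac1, was called in the mutant alone (0.90 and 1.11, interactions 0.83 and 0.71, both called).

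Among those that were lower, Prok2 fell by 2.23 and 2.13 in WT. It stayed at or below 1.94 TPM in every mutant library and passed the filter through WT libraries. Its called fall with Ex-4 in the mutant (0.66, from a mean of 0.708 TPM in CON to 0.079 TPM), counted above, is therefore a description. Guca2b, the uroguanylin precursor, fell by 0.67 and 1.84 in WT and by 1.25 with FSK in the mutant. Edn3 and Npff fell in WT with both agents (Edn3 -0.74 and -1.08, Npff -0.85 and -1.15), and Sct, the secretin precursor, fell with FSK in both genotypes (-0.84 and -0.87). Penk rose with FSK in WT (0.66), from a mean of 0.64 TPM in CON to 1.58 TPM, and Kiss1 rose with FSK in the mutant (0.85). Npw averaged 1.03 TPM over all libraries and passed the filter only with the mutant 16 h FSK libraries (mean 3.81 TPM). Its called rise in that group (1.25) is therefore a description. Guca2a, Npb, Pnoc, Pomc and Pthlh were called in none of the 4.

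**Figure D4:**
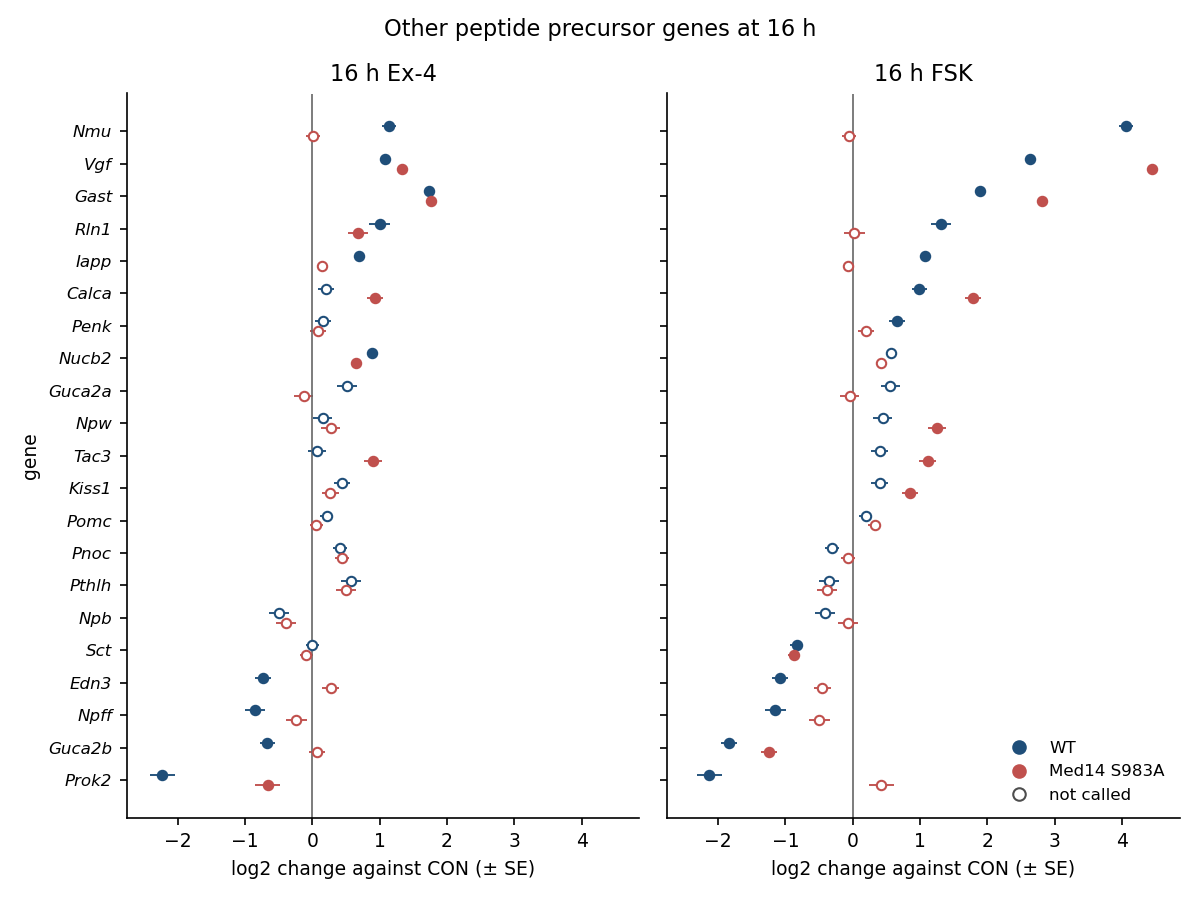
Log2 change against CON with SE bars for 21 other peptide precursor genes at 16 h of Ex-4 (left) and FSK (right), in WT (blue) and Med14 S983A cells (red). Filled points were called and open points were not. Gast and Vgf are filled in all 4 contrasts. Nmu is filled in WT alone, and its rises there are descriptions. So are the filled mutant points of Npw with FSK and of Prok2 with Ex-4.

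Of 27 receptors for the 10 peptides, 26 were in the table and 10 were tested. At 16 h, 1 of 10 was lower with Ex-4 in WT (8.28% of all genes were), and 3 were lower and 1 higher with FSK in WT (24.1% and 10.3% of all genes). In the mutant 2 were lower and 1 higher with Ex-4 (7.15% and 4.73% of all genes), and 5 were lower and 1 higher with FSK (21.1% and 12.2%). The median log2 change of the 10 was 0.10 and -0.34 in WT and -0.11 and -0.69 in the mutant, against -0.16, -0.20, -0.06 and -0.10 over all genes. Vipr1, a receptor of VIP and PACAP, fell in all 4 (by 0.68, 1.5, 0.79 and 2.21 on the log2 scale). Cckar, the receptor of cholecystokinin, fell in the mutant alone (by 1.06 and 1.22, interactions -1.29 and -1.77, both called) from a mean of 19.3 TPM that was already lower than the 40.9 TPM of WT CON. Sstr1, of somatostatin, rose with FSK in WT (0.78) and with both agents in the mutant (1.19 and 2.01). Gcgr, the glucagon receptor, was read from NR_073147, a RefSeq record of a non-coding transcript. It was lower by 1.95 in the untreated mutant and fell with FSK in both genotypes (-0.90 and -0.91). Glp1r, the receptor that Ex-4 activates, stood at 92.6 TPM in WT CON and 89.0 TPM in Med14 S983A CON and was called in none of these contrasts. Npy1r and Sort1 fell with FSK in the mutant (-0.91 and -1.03), and Sstr3 with FSK in WT (-0.61).

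Of 12 enzymes and helpers that turn precursors into peptides, 11 were tested. With Ex-4 at 16 h, 2 were higher and none lower in WT, and 1 was higher and 1 lower in the mutant. With FSK, 3 were higher and 2 lower in WT, and 2 higher and 4 lower in the mutant. The shares of all genes in these contrasts are those given for the other peptide precursors. Pam, which amidates the ends of peptides such as cholecystokinin and substance P, rose in all 4 contrasts at 16 h (log2 2.08 and 3.10 in WT, 1.36 and 2.15 in the mutant), from 200.8 TPM in WT CON and 537 TPM in the mutant. Pcsk2, the convertase that frees glucagon, rose in WT with both agents (0.89 and 0.76), and in the mutant it changed by 0.19 with Ex-4, not called, and fell by 0.82 with FSK. Pcsk1, the convertase that frees GLP-1, fell with FSK in both genotypes (-0.92 and -2.53) and with Ex-4 in the mutant (-1.16). Scg5, the chaperone of Pcsk2, fell with FSK in both genotypes (-1.08 and -1.30). Qpct rose with FSK in WT (0.95) and Ctsl in the mutant (0.74), and Tpst1 fell with FSK in the mutant (-0.70). Cpe, Cpd, Furin and Tpst2 were called in none of the 4.

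Most beta cell markers of the list were expressed, and of the defining markers of other islet cells most were at or near 0. Of 12 beta cell markers, 9 were tested, among them Ins1 with a mean of 34109 TPM and Pdx1 with 292 TPM in WT CON. Ucn3, a marker of mature beta cells, stayed at or below 0.556 TPM. Slc2a2, the glucose transporter, was at 517 TPM in WT CON and 62.6 TPM in Med14 S983A CON. Ins2 went the other way, from 2938 TPM in WT CON to 35068 TPM in Med14 S983A CON. Between the genotypes at CON, 1 of the 9 was called higher and 2 lower (8.29% and 11.1% of all genes). At 16 h, 6 of the 9 were lower and 2 higher with FSK in WT (24.1% and 10.3% of all genes). With FSK in the mutant 7 were lower and none higher (21.1% and 12.2%). With Ex-4, 1 was lower and 2 higher in WT (8.28% and 3.53% of all genes), and 4 were lower in the mutant (7.15%). The part of these shifts in the changes of the peptide genes was not tested. The alpha cell factors Irx1, Irx2 and Pou3f4 and the alpha cell transcript Ttr were under 1 TPM in every library, with Irx2 and Pou3f4 at 0 in all 28, although Gcg reached 1345 TPM. Gc, another alpha cell marker, was present (WT CON 1133 TPM). Without Gcg, the 5 summed alpha cell markers, nearly all of it Gc, ran from 1122 to 1144 TPM in WT CON and from 1547 to 1616 TPM in Med14 S983A CON, the opposite order to Gcg. In WT they were at 680.0 to 738 TPM at 8 h of FSK, where Gcg was highest. Without Sst, the 3 delta cell markers summed to at most 0.268 TPM, and without Pyy the 2 markers of PP cells to at most 0.73 TPM. Ghrl of epsilon cells stayed under 0.1 TPM.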

How the data were processed

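RNA-seq was analysed in 28 libraries of INS-1 cells, and groups and replicates were taken from the sample titles. The authors aligned paired reads of stranded libraries to rn6 with STAR 2.5.3a and quantified RefSeq transcripts as TPM with HOMER 4.11.1; the deposited TPM values were used unscaled. The Length column that the authors give is the exon length. The deposited counts are raw counts of the 92 ERCC spike-in sequences, added to total RNA, so they measure mRNA per mass of RNA and not per cell. The authors' own test was DESeq2 1.24.0 on ERCC size factors.

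Of 19223 lines, 1676 further transcripts of a symbol were dropped, which left 17455 symbols. Log2(TPM + 1) of the 10275 symbols with a mean of at least 1 TPM was fitted with limma 3.58.1 (eBayes with trend, two-sided) in R 4.3.3 on 14 group means, with Benjamini-Hochberg adjustment within each contrast. Spread is shared over all 28 libraries. Multiplying TPM by length and scaling to the ERCC counts gave back fragments. Of 124685 values below 1000 reads, 100.0% fell within 0.05 of a whole read plus an allowance for the rounding of TPM (22.6% would by chance). There are 2 reads a fragment, so steps of 0.5 fragments occur. Fragment totals ranged from 38175238 to 82873934 a library, and intervals and floors cover counting error only.

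Alternatives were a pseudocount of 0.1, no filter, a mean of at least 5 TPM, centring on the median, ERCC scaling, the libraries of a contrast alone, a replicate block, leaving out each library, no fold minimum, the sum of all transcripts, and, on the recovered fragments, edgeR 4.0.16 and DESeq2 1.42.0, the latter also with ERCC size factors. The scripts were tested on simulated data. Named were the 10 genes, Med14, for each tested gene the 3 symbols most alike over group means, list members called in a described contrast, and all listed peptide precursors over 1 TPM. The genes and lists were chosen with earlier results of these data known. Promoters came from RefSeq (GRCr8); Cck had no entry. Some genes of the marker lists are not reported here and were left out of the sums.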

Additional observations from a re-analysis of the deposited data

Results flagged for a closer look

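The response to treatment differed between WT and Med14 S983A cells in 7 of 20 interactions tested for Cartpt, Cck, Tac1 and Gcg, and passed the same rule in 3 of 4 at 16 h of Ex-4 (limma, mutant response minus WT response on the log2 scale). For Cartpt the difference was -0.74 at 8 h of Ex-4, -0.94 at 16 h of Ex-4, -0.59 at 8 h of FSK and -1.53 at 16 h of FSK. For Cck it was -1.12 at 8 h and -0.85 at 16 h of Ex-4. The 16 h Ex-4 values rest on the WT libraries in which Cartpt and Cck were first picked and are descriptions. The WT CON libraries used in that choice enter all the interactions. For Tac1 it was 1.54 at 16 h of Ex-4 and 1.73 at 16 h of FSK. For Gcg it was 0.93 at 8 h and 1.66 at 16 h of FSK. The libraries that end the 8 h FSK value of Cartpt are named in the report. What lies behind these differences was not tested.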

How the results depend on the processing

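Over the 4 tested genes, 61 of the 88 contrasts that do not use the WT 16 h Ex-4 libraries were called. Every alternative left all 61 in the same direction, and 58 stayed called under every one. The 12 that use those libraries, which led to the set, are descriptions and are not counted here. The WT CON libraries also entered that choice, so calls that use them are not independent of it. The 3 calls not kept under every alternative were Cartpt at 8 h FSK (interaction), Cartpt in mutant 8 h Ex-4 against FSK, and Gcg in WT 8 h Ex-4 against FSK. Their values are given in the report. A pseudocount of 0.1, no filter, a mean of at least 5 TPM, the libraries of a contrast alone and the sum of transcripts changed no call of these genes. In the labels, same-numbered libraries of different groups share only a number. Over 91 pairs of groups, their deviations correlated at -0.28 to 0.28 (17 pairs over 0.1), which cannot tell whether some libraries shared a batch. The fit with the replicate number as a block left all member counts as they were, such as 1 for the genotypes at CON.

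Of the 4 genes, 1 was called between the genotypes at CON. That count was 2 with median centring, ERCC scaling, edgeR or DESeq2, 3 with no fold minimum or with DESeq2 on ERCC size factors, and 1 to 2 on leaving out a library (2 without mutant CON replicate 1). The interaction at 1 h FSK, with 0 called, had 1 with ERCC scaling in limma or DESeq2 and 2 with no fold minimum. The interaction at 8 h FSK, with 2, had 4 with no fold minimum and 1 to 2 on leaving out a library. In WT 16 h Ex-4 against FSK, a description since it uses the libraries that led to the set, 2 passed the rule, and 4 with no fold minimum. Mutant 1 h Ex-4 against FSK, with 1, had 3 with median centring, no fold minimum, edgeR or DESeq2, and 1 to 2 on leaving out a library (2 without mutant 1 h FSK replicate 1).

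Signs turned only in values that were not called. Cartpt in mutant 16 h Ex-4 against FSK was -0.027 with ERCC scaling and -0.021 with DESeq2 on ERCC size factors. The Tac1 interaction at 8 h Ex-4 was -0.048 with median centring, -0.071 with ERCC scaling, -0.043 with edgeR, -0.048 with DESeq2, -0.12 with DESeq2 on ERCC size factors, and -0.086 to 0.17 on leaving out a library. The Tac1 difference between the genotypes at CON was -0.042 to 0.082 on leaving out a library. Gcg in mutant 1 h FSK against CON was -0.15 with ERCC scaling, -0.17 with DESeq2 on ERCC size factors and -0.026 to 0.088 on leaving out a library. The Gcg interaction at 1 h Ex-4 was -0.018 with median centring, -0.0055 with ERCC scaling, -0.012 with edgeR and -0.039 to 0.052 on leaving out a library. The Gcg interaction at 16 h Ex-4 was -0.0052 with median centring, -0.31 with ERCC scaling and -0.13 with DESeq2 on ERCC size factors. Gcg in WT 1 h Ex-4 against FSK was -0.061 with median centring, -0.063 with ERCC scaling, -0.058 with edgeR, -0.054 with DESeq2, -0.042 with DESeq2 on ERCC size factors and -0.024 to 0.025 on leaving out a library. Gcg in mutant 1 h Ex-4 against FSK was -0.0078 with median centring. The cause of these shifts was not tested.

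Each group held 2 libraries, and a group left with 1 was assumed to vary like the others. The 6 genes below 1 TPM rest on few fragments, so differences of a few fragments between libraries are within counting error.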
